A study of Mus musculus with 2 samples.

Results

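A group of 169 immune cells in a sodium iodate-treated mouse retina library carried complement C1q transcripts, transcripts of 4 macrophage genes and little or no RNA of 5 microglia genes. They were chosen from 740 C1q-positive cells of that library, which holds 9746 cell barcodes, and the whole study holds 15988. The cells were profiled by droplet single-cell RNA sequencing (10x), in which a unique molecular identifier (UMI) stands for 1 captured transcript. One library came from mice given NaIO3, an oxidant toxic to the retinal pigment epithelium, at 20 mg per kg into a vein, and one from mice given the same volume of its solvent, phosphate-buffered saline (PBS). Eyes were taken on day 7, and each library pooled the retinas of 6 mice. With 1 library per treatment, cells are not replicates, no test was possible, and all 95% intervals cover counting error only.

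Both libraries are labelled CD11b+ microglia, but the labels' protocol names CD11b magnetic beads for the NaIO3 cells only. The NaIO3 library held 75981079 UMIs (median 2863.5 per barcode) and the PBS library 26605477 (median 2539.5). The libraries shared 24 barcodes, none of them in the 169 cells. Of cells with at least 3000 UMIs and at most 15% mitochondrial UMIs, 740 of 4491 in the NaIO3 library (16.5%) and 7 of 2212 in the PBS library (0.316%) passed the C1q gate, so the defining C1q transcripts of the labelled cell type were below the gate in most cells of both libraries. All 7 PBS cells carried the microglia genes and none was a member, which for 7 cells still allows a share of up to 42.9% (3 counts of 7). Treatment and bead selection cannot be told apart here, and the results below are within the NaIO3 library.

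Retinal microglia are resident macrophages that settle in the embryo and express P2ry12 and Tmem119, cell-surface proteins of the resting state, and Sall1, a transcription factor of microglial identity. Classical monocytes arrive from blood when the retina is injured, carry the chemokine receptor Ccr2 and the surface protein Ly6c2, and can turn into macrophages that lose these monocyte genes and gain C1q. Injured microglia in turn lower their own resting-state genes, so the transcriptome of a C1q-positive cell alone does not give its origin.

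The gate required 0.3% or more of a cell's UMIs from C1qa, C1qb and C1qc and under 3 UMIs of the lymphocyte genes Nkg7, Xcl1 and Gzma. Members had at least 0.02% of UMIs, and at least 3 UMIs, from Ms4a7, Ccr2, Clec12a and Mrc1, and less than 0.02% from P2ry12, Tmem119, Sall1, Siglech and Gpr34. They made up 22.8% of the gate (19.9 to 26.0, exact Clopper-Pearson interval). The comparison cells, called microglia-marker cells here, were the 494 gate cells with 0.02% or more of the 5 microglia genes, and the other 77 gate cells reached neither definition. Median depth was 14395 UMIs in members (range 3069 to 89294), 16462 in microglia-marker cells and 5356 in the 77 others. Scrublet called 9 of 169 members (5.33%) and 9 of 494 microglia-marker cells (1.82%) doublets, and they were kept, as the rule does not remove them.

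The 4 macrophage genes did not divide the gate into separate groups. Of the microglia-marker cells, 353 of 494 (71.5%) also met the macrophage definition, beside 169 of 246 gate cells without the microglia genes (68.7%). In members the macrophage sum ran from 0.0202% to 0.636% of UMIs with a median of 0.103%, or 3 to 177 UMIs with a median of 14. Just inside that limit lay members at 0.0202%, 0.0213% and 0.0237%, and the nearest excluded cell with enough UMIs had 0.01995%. At the microglia limit, the nearest members had 0.0198%, 0.0196% and 0.0195% and the nearest excluded cells 0.0201%, 0.0203% and 0.0204%. There were 76 members at 0.01% or more for the microglia genes, and 59 members had no UMI of them. Those 59 were shallower, with a median of 7366 UMIs (lowest 3069) against 20222 (lowest 5158) in the 110 members with such UMIs. The rule ties this to depth, because in the shallowest cells a lone microglia UMI reaches 0.02% and excludes the cell. The part of depth in the other values of the 59 was not tested. When all cells were thinned to 3000 UMIs before the rule was applied, members made up 15.2% of the gate. The limits are not the same at that depth, where 3 macrophage UMIs are more than 0.02% and a lone microglia UMI excludes a cell.

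**Figure D1:**
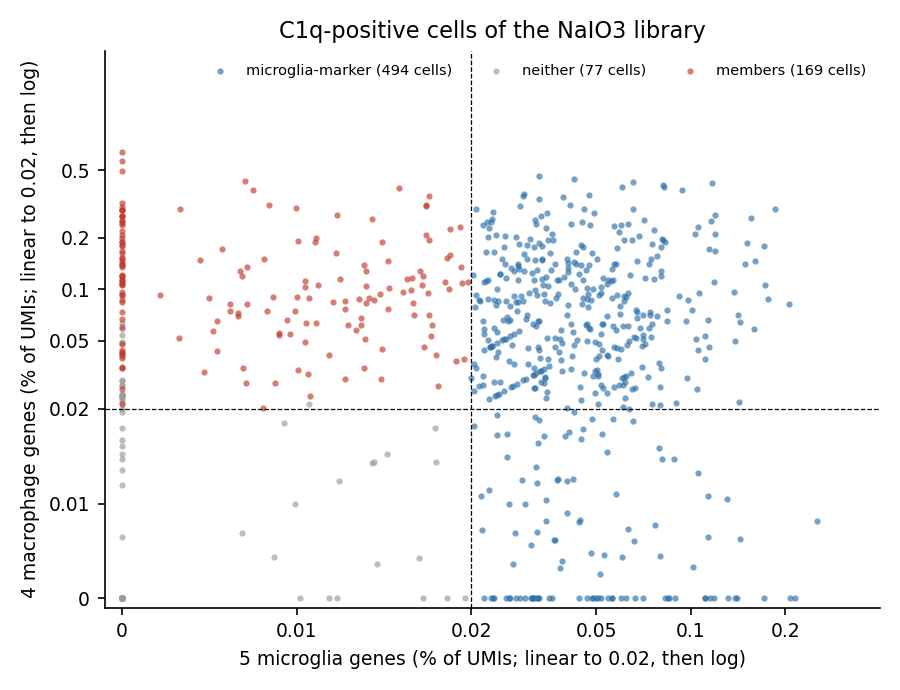
Each point is 1 of the 740 C1q-positive cells of the NaIO3 library, with the UMI share of the 5 microglia genes on the x axis and of the 4 macrophage genes on the y axis (% of UMIs, both axes linear up to 0.02 and logarithmic above). The 169 members (red) sit upper left of the dashed 0.02% limits and run into the 353 microglia-marker cells (blue) upper right with no gap between them.

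The rule genes are given as a description, since they chose the cells. Ms4a7, a membrane protein of tissue macrophages (mm10 chr19:11321039-11336146), had a UMI in 160 members. Clec12a, an inhibitory lectin receptor of myeloid cells (chr6:129342691-129365303), had one in 122 members. Ccr2 (chr9:124101950-124113557) was found in 90 members, and Mrc1, the mannose receptor of border and tissue macrophages (chr2:14229392-14332057), in 45. Most members held several of the 4 genes, with 27, 52, 74 and 16 members carrying 1, 2, 3 and 4 of them. The most common combination was Ms4a7, Ccr2 and Clec12a together, in 50 members, and 25 members had Ms4a7 alone.

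Tgfbi, an extracellular matrix protein made by monocytes and macrophages (chr13:56609523-56639562), is the one marker of the group that the rule did not use. Its share of cells was close in members and microglia-marker cells. With every cell thinned to 3000 UMIs, 81.1% of members had a Tgfbi UMI (74.3 to 86.7), beside 80.6% of microglia-marker cells and 1.68% of rod cells, whose median depth was 3745 UMIs and which give the level of free RNA. Summed over cells and divided by the group's UMIs (CPM, the share of UMIs scaled to 1e+06), Tgfbi stood at 769 CPM in members and 932 CPM in microglia-marker cells, a ratio of 0.825 (0.789 to 0.862). The middle range of cells overlapped, from 327 to 1093 CPM in members and 358 to 1178 CPM in microglia-marker cells.

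Across all genes, 336 of 6567 (5.12%) were called higher in members and 162 (2.47%) lower. A call needed a ratio of at least 1.5 in CPM, in either direction, with an interval that leaves out 1, at 20 CPM or more in either group and 20 summed UMIs. The median log2 ratio of all genes tested was -0.04. The counts depend on the cells compared, with 677 higher and 378 lower without cycling cells, 658 and 530 against microglia-marker cells below the macrophage limit, and 854 and 752 with the 59 members without microglia UMIs alone. Ccr2 among the called higher genes, and P2ry12, Tmem119, Siglech and Gpr34 among the lower, belong to the rule. Counting intervals are narrow for abundant genes even where few cells carry the RNA, so the number of cells behind a value is given for the genes below.

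Genes of classical monocytes gave a mixed picture. Outside the rule, 8 of 15 listed genes could be tested. Of these, 4 were higher (Ly6c2, Plac8, Thbs1 and Vcan) and 1 was lower (Fn1), beside 5.12% and 2.47% of all genes. The median log2 ratio was 0.44 against -0.04 over all genes. The summed list was nonetheless slightly lower, at 762 CPM in members and 830 CPM in microglia-marker cells (ratio 0.918, 0.877 to 0.960). Fn1, the matrix protein fibronectin, decides that direction, at 121 against 393 CPM, and without it the ratio was 1.47. The middle of the cells was alike, with a median list level of 493 CPM per member and 504 CPM per microglia-marker cell.

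Ly6c2, the monocyte surface protein, was 2.46 times higher (2.15 to 2.82), at 118 CPM in members and 47.7 CPM in microglia-marker cells. It was found in 47 of 169 members, and 6 members held 50% or more of its UMIs. At equal depth 14.8% of members, 5.26% of microglia-marker cells and 0% of rods had a Ly6c2 UMI. Plac8, a small cysteine-rich protein abundant in monocytes and dendritic cells, stood at 135 against 76.9 CPM (ratio 1.76, 1.56 to 1.98) with UMIs in 46 members, 6 of which held 50% or more. Against the 353 microglia-marker cells that also met the macrophage definition, the ratios were 1.92 for Ly6c2 and 1.47 for Plac8. The other higher genes rest on fewer cells: 91.0% of Vcan UMIs came from 1 member, and Thbs1 had a ratio of 3.12 with and 1.11 without the 15 members richest in Spp1, Gpnmb and Fabp5. Further defining monocyte genes were close to 0. Chil3, a chitinase-like protein, had 6 UMIs in 5 members, and haptoglobin (Hp) 3 UMIs. UMIs of Ly6c2, Ccr2 and Plac8 together were found in 13 of 169 members and 18 of 494 microglia-marker cells, counts not taken at equal depth.

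For comparison, 59 cells of the same library had under 0.1% C1q and at least 0.02% of UMIs from Ly6c2, Chil3, Plac8 and Ccr2 (median 13187 UMIs). Although chosen with monocyte genes, they had no Chil3 UMI and carried dendritic cell genes, with Itgae at 349 CPM, Flt3 at 83.9 CPM and Cd74 at 12788 CPM, so they are called C1q-low cells here and are no monocyte standard. Their own Ly6c2 (217 CPM) and Plac8 (858 CPM) levels were part of that choice and are a description. In genes outside it, members had 138 against 918 CPM of S100a6 and 769 against 91.6 CPM of Tgfbi. The tested genes of nonclassical monocytes, which patrol blood vessels, were 3 of 10, none of them called.

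**Figure D2:**
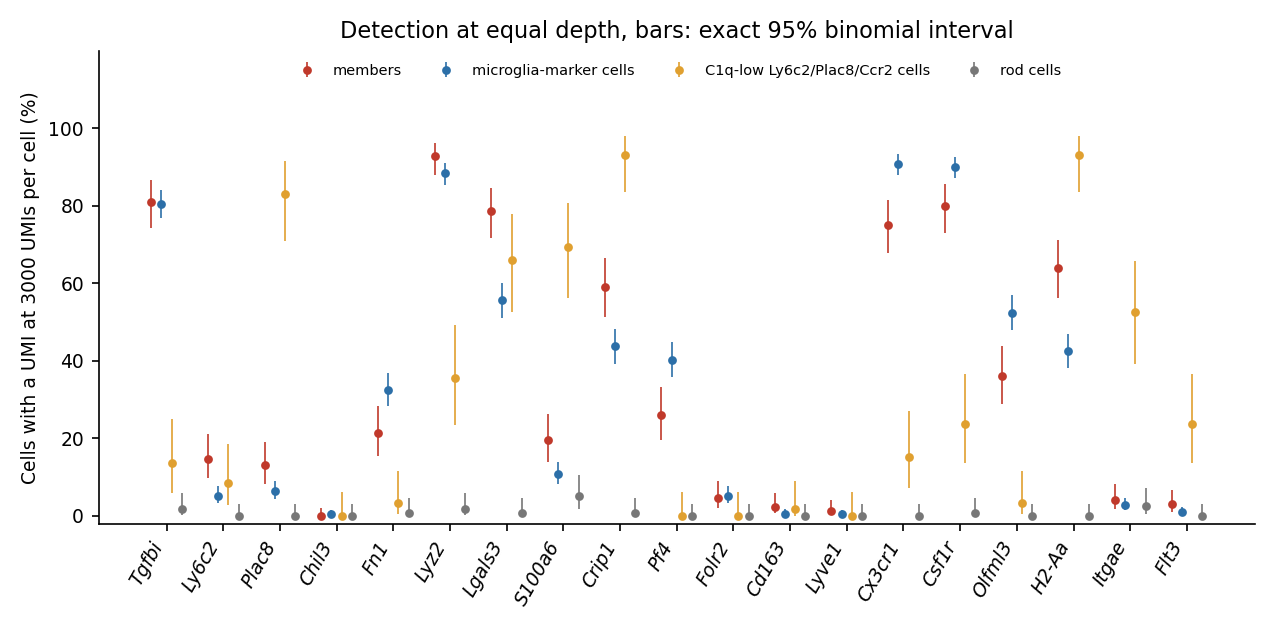
Share of cells with at least 1 UMI of each gene (y axis, %) after thinning every cell to 3000 UMIs, in 169 members, 494 microglia-marker cells, 59 C1q-low cells and 119 rod cells, with exact 95% binomial intervals. Tgfbi is alike in members and microglia-marker cells, Ly6c2, Plac8, Lgals3 and H2-Aa have higher shares in members, and Cx3cr1, Csf1r, Olfml3 and Pf4 lower ones.

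Of 28 tested genes of recruited and activated macrophages, 7 were higher and 2 were lower, beside 5.12% and 2.47% of all genes, which also were higher more often than lower. The median log2 ratio was 0.24. Lgals3, a galactose-binding lectin, stood at 1168 CPM in members and 550 CPM in microglia-marker cells (ratio 2.13, 2.04 to 2.22) and was found in 158 members. Lysozyme (Lyz2) stood at 4319 against 2244 CPM, and its ratio of 1.92 became 1.25 without the 15 Spp1-rich members. The calcium-binding proteins S100a4, S100a6 and S100a11 were 2.03, 1.93 and 1.87 times higher, and the giant scaffold protein Ahnak 2.05 times. Arginase 1 (Arg1) was 4.54 times higher, with 37.2% of its UMIs in 1 member, and 2.18 times without the Spp1-rich members. The chemokine receptor Ccr1 (ratio 0.621) and the endotoxin co-receptor Cd14 (ratio 0.580) were lower.

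Of 14 border and tissue macrophage genes tested, 4 were higher and 1 was lower, where 5.12% and 2.47% of all genes were, and the median log2 ratio was 0.05. Ccl8, a chemokine, was 3.25 times higher at 219 against 67.5 CPM, but only 27 members had it and 3 of them held 50% or more of the UMIs. Ceruloplasmin (Cp) was likewise concentrated, with 31.1% of UMIs in 1 member. Wfdc17 stood at 430 against 213 CPM, and Cd38 at 35.1 against 16.7 CPM. Pf4, the platelet factor chemokine, was the lower one, at 164 against 247 CPM. The defining genes of perivascular and meningeal macrophages were scarce: Lyve1 was at 3.69 CPM in 8 members, Cd163 at 11.4 CPM in 7, F13a1 at 19.4 CPM in 13 and Folr2 at 32.0 CPM in 24. Microglia-marker cells had less of each, with ratios of 4.16 (1.61 to 11.2), 2.31 (1.47 to 3.61), 2.52 (1.78 to 3.56) and 1.40 (1.10 to 1.77). Of these genes Folr2 alone had enough CPM to be tested for a call. Against the 353 microglia-marker cells that also met the macrophage definition, the ratios were 4.15 (1.51 to 12.4), 1.79 (1.14 to 2.80), 1.96 (1.38 to 2.76) and 1.10 (0.860 to 1.39). Folr2 thus did not differ beyond counting error there. Thinned, the Cd163 share was 2.37% in members and 0% in rods.

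Microglial genes that the rule did not use were lower but far from absent. Of 26 tested, 12 were lower and 1 (Lag3) was higher, against 2.47% called lower over all genes, with a median log2 ratio of -0.49 and a summed ratio of 0.765 (0.755 to 0.775). The median member had 8118 CPM of the list and the median microglia-marker cell 10638 CPM, with middle ranges of 6410 to 10120 and 8263 to 13993 CPM that overlap. The fractalkine receptor Cx3cr1 stood at 771 against 1190 CPM (ratio 0.648, 0.621 to 0.677) and was found in 157 of 169 members. Csf1r, the survival receptor of macrophages and microglia, stood at 633 against 897 CPM and was found in 163 members, which did not pass the 1.5-fold limit. Olfml3, Slco2b1, Hpgd and P2ry13, all enriched in resting microglia, had ratios of 0.553, 0.445, 0.473 and 0.496. Sparc was lower as well, but 59.6% of its member UMIs came from 1 cell.

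At equal depth Cx3cr1 was found in 75.1% of members and 90.9% of microglia-marker cells, and in 15.3% of C1q-low cells and 0% of rods. Among 19 transcription factor genes tested, Bhlhe41, Mef2c and Klf2 were lower and none was higher, beside 2.47% and 5.12% of all genes. Klf2 stood at 238 against 443 CPM. The macrophage factors Spi1 (265 against 295 CPM) and Irf8 (381 against 474 CPM) were not called. Set against the 353 microglia-marker cells that carry the same macrophage genes, members again had 0.644 times the Cx3cr1 (0.616 to 0.673) and 0.693 times the Csf1r (0.659 to 0.728).

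**Figure D3:**
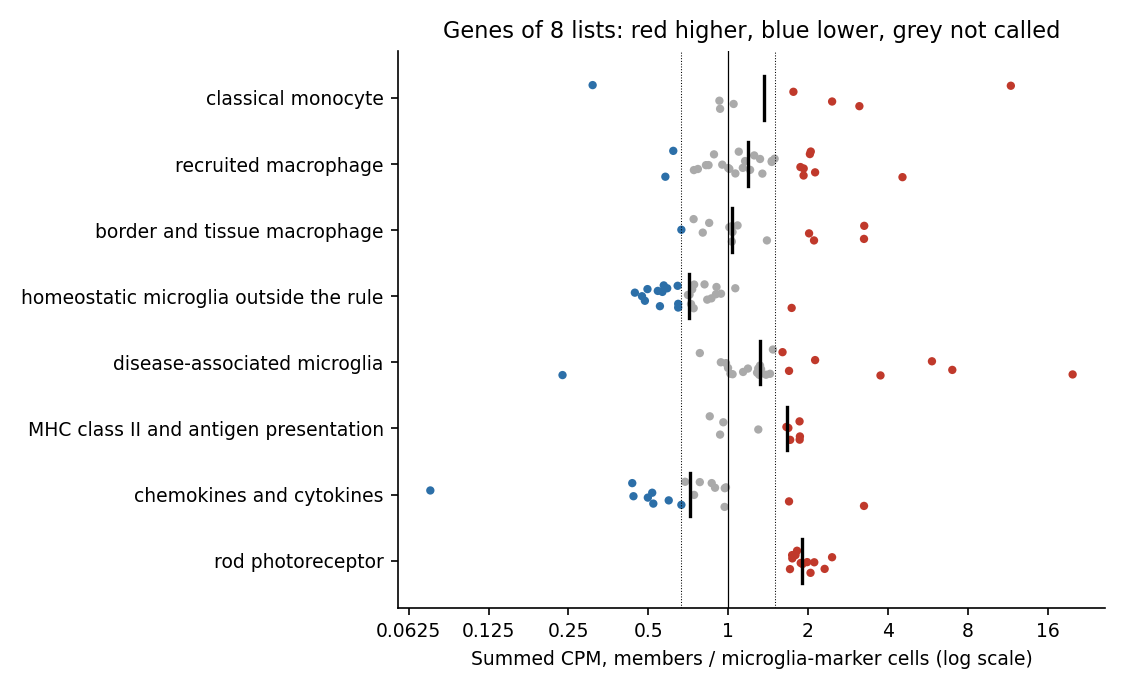
Each point is a tested gene of 1 of 8 lists, placed at its CPM in members divided by its CPM in microglia-marker cells (x axis, log scale), with black bars at list medians and dotted lines at the 1.5-fold limits. Homeostatic microglia genes and chemokines lie mostly left of 1, MHC class II and rod genes right of it, and monocyte genes on both sides.

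Antigen presentation genes were mostly higher in members. MHC class II proteins display peptides to CD4 T cells, Cd74 is their chaperone and Ciita the coactivator that switches their genes on. Of 10 tested genes 6 were higher and none lower, beside 5.12% and 2.47% of all genes. The median log2 ratio was 0.74. H2-Aa stood at 2377 CPM in members and 1280 CPM in microglia-marker cells (ratio 1.86, 1.81 to 1.91), and H2-Ab1 and H2-Eb1 also had ratios of 1.86. Cd74 stood at 4735 against 2809 CPM, Ciita at 69.6 against 40.6 CPM and H2-Oa at 31.7 against 19.1 CPM. At equal depth H2-Aa was found in 63.9% of members, 42.5% of microglia-marker cells and 0% of rods. Per cell, H2-Aa had a median of 613 CPM with a highest value of 20500 CPM in members, and a median of 82.3 CPM with a highest value of 12966 CPM in microglia-marker cells, so the ranges overlapped. The peptide-loading gene H2-DMa did not follow (256 against 267 CPM).

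The promoters of 3 of these higher genes are shown because class II genes share an X box and a Y box through which Ciita acts. They come from the RefSeq table of GRCm38.p6, 5′ to 3′ on the gene's strand, from 140 to 20 bases before the start, with the X-box core GCAAC and the inverted CCAAT letters ATTGG of the Y box in capitals.
H2-Aa (GRCm38.p6, chr17:34287844-34287963, minus strand): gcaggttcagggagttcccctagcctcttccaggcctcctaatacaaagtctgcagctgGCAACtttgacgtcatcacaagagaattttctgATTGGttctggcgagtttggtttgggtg
H2-Eb1 (GRCm38.p6, chr17:34305727-34305846, plus strand): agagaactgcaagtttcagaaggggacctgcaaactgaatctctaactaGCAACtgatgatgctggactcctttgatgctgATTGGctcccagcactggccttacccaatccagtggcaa
H2-Oa (GRCm38.p6, chr17:34092239-34092358, plus strand): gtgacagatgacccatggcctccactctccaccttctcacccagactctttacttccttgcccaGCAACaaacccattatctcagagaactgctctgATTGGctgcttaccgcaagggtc
In these windows the 2 capitalised stretches are 28, 27 and 28 bases apart. Both strands of all 32851 windows of 300 bases were searched, and GCAAC followed by ATTGG after 20 to 35 bases was in 261 of them (0.794%), while ATTGG alone was in 37.4% and GCAAC alone in 35.2%. The 2 motifs share no letters that overlap. Of 8 genes looked up, class II genes and Ciita, 6 had a window, and H2-Ab1 and Ciita had none. H2-Ob was the fourth gene with the pair, and H2-DMa and H2-DMb1 had windows without it.

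The 3 highest ratios among genes of at least 100 CPM, found in at least 10% of cells and with at most 20% of UMIs in 1 cell, drew most of their UMIs from a small number of members. Fabp5, a fatty acid carrier, was 6.99 times higher (6.61 to 7.41) at 1199 against 171 CPM. Gpnmb, a lysosomal glycoprotein, was 5.86 times higher (5.60 to 6.13), and Spp1, the secreted protein osteopontin, 3.75 times (3.67 to 3.83). For each of them 6 of the 169 members held 50% or more of the UMIs. Leaving out the 15 members with 2% or more of UMIs from these genes gave ratios of 2.18, 2.22 and 0.971. In every ratio without Spp1-rich members, the 9 of 494 microglia-marker cells at 2% or more stayed in. Removing members chosen on these 3 genes lowers the ratios of the genes by construction. The list of disease-associated microglia genes, to which these 3 genes belong, had 7 higher and 1 lower of 24 tested, beside 5.12% and 2.47% of all genes. Its median log2 ratio was 0.39, and its summed ratio of 1.52 became 1.20 without the same 15 members. Apoe (22165 against 16807 CPM) and Trem2 (585 against 493 CPM), which most cells carried, were not called.

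Other genes among the 12 highest under those limits were Smpdl3a, a sphingomyelinase-like phosphodiesterase (ratio 2.61), the lipoprotein-associated phospholipase Pla2g7 (2.17), the membrane-repair protein Myof (2.16) and the lysosomal Pld3 (2.14, or 1.40 without the Spp1-rich members). Rod cells had more Pla2g7 than members, at 430 against 323 CPM, and in 66.4% against 47.9% of cells at equal depth. Mgarp and Rbp3, also among the 12, stood at 864 and 2450 CPM in rods and 135 and 101 CPM in members. The part of rod RNA in these 3 ratios was not tested. Smpdl3a was spread over 100 members, and Myof over 103. Scavenger receptor and lipid-handling genes had 2 higher (Fabp5 and Pltp) of 17 tested, beside 5.12% of all genes. The fatty acid receptor Cd36 stood at 101 against 134 CPM and was found in 10.7% of members and 25.5% of microglia-marker cells at equal depth. Its ratio of 0.755 became 0.438 without the Spp1-rich members.

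Chemokine and cytokine genes were more often lower than higher. Of 18 tested, 8 were lower and 2 (Ccl6 and Ccl8) higher, beside 2.47% and 5.12% of all genes. The median log2 ratio was -0.48. Cxcl10, a chemokine induced by interferon, had the lowest ratio of the named genes, at 15.1 CPM in members and 200 CPM in microglia-marker cells (0.0754, 0.0556 to 0.100), with UMIs in 19 of 169 and 140 of 494 cells. Few cells weigh on the Cxcl10 value, as 8 microglia-marker cells and 4 members held 50% or more of their group's UMIs. Its ratio was 0.168 as a mean over cells. At equal depth 3.55% of members and 13.2% of microglia-marker cells had a Cxcl10 UMI. Ccl2, which draws Ccr2-bearing monocytes, stood at 425 against 854 CPM, Ccl12 at 405 against 776 CPM and Tnf at 50.5 against 115 CPM. The cholesterol hydroxylase Ch25h had a ratio of 0.238. Inflammasome and interleukin-1 genes had 1 higher (Il1rn, the receptor antagonist) and 1 lower (Il1a) of 14. A single gene of 14 in either direction is close to the shares over all genes. Nlrp3 stood at 33.9 against 45.8 CPM, and Il1b at 244 against 173 CPM, neither of them called.

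Rod photoreceptor RNA moved with the members. All 12 listed rod genes tested were higher (median log2 ratio 0.92), beside 5.12% of all genes. Among them was Gngt1, a subunit of rod transducin, at 297 against 129 CPM. The median member had 0.0356% of its UMIs from 5 rod genes and the median microglia-marker cell 0.0256%, and the highest values were 3.63% and 3.33%. Of 8 Müller glia genes 4 were higher and 1 lower, where 5.12% and 2.47% of all genes were, with 83.3% of Gfap UMIs in 1 member. The part of rod RNA, whether free or from other cells, in the results above was not tested, and the rod cells had 1.79 CPM of H2-Aa, 0 CPM of Ly6c2 and 3.57 CPM of Lyz2. Dendritic cell genes were also higher in 5 of 7 tested and lower in 1, beside the same shares of all genes. Itgae stood at 60.9 against 23.2 CPM and Napsa at 74.2 against 37.3 CPM. The dendritic markers Flt3 and Zbtb46 stood at 6.77 and 2.77 CPM in members. Itgae was found in 20 members, 4 of which held 50% or more of its UMIs. Neutrophil genes were near 0, with 3 UMIs of S100a8 and none of S100a9.

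The members were not uniform. The sum of Cd74, H2-Aa, H2-Ab1 and H2-Eb1 reached 1% of UMIs in 62 of 169 members (36.7%, 29.4 to 44.4), against 106 of 494 microglia-marker cells (21.5%, 17.9 to 25.3). Spp1, Gpnmb and Fabp5 together reached 1% in 24 members (14.2%, 9.32 to 20.4) and 18 microglia-marker cells (3.64%, 2.17 to 5.70). Only 2 members reached both limits, and 85 reached neither. The 60 members high in class II alone had 250 CPM of Ccr2, 292 CPM of Plac8 and 529 CPM of Il1b, beside 34.7, 21.1 and 61.9 CPM in the 22 members high in Spp1, Gpnmb and Fabp5 alone. The latter had 11282 against 1667 CPM of Lyz2 and 7724 against 954 CPM of the lysosomal protease Ctsd. Dendritic cell genes were higher in the class II group, with Itgae at 136 against 1.51 CPM, Napsa at 170 against 25.7 CPM and Flt3 at 17.8 against 0 CPM. Zbtb46 did not differ beyond counting error (ratio 4.49, 0.603 to 199). At equal depth 7 of the 60 class II cells had an Itgae UMI. Both limits were chosen after seeing the data.

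**Figure D4:**
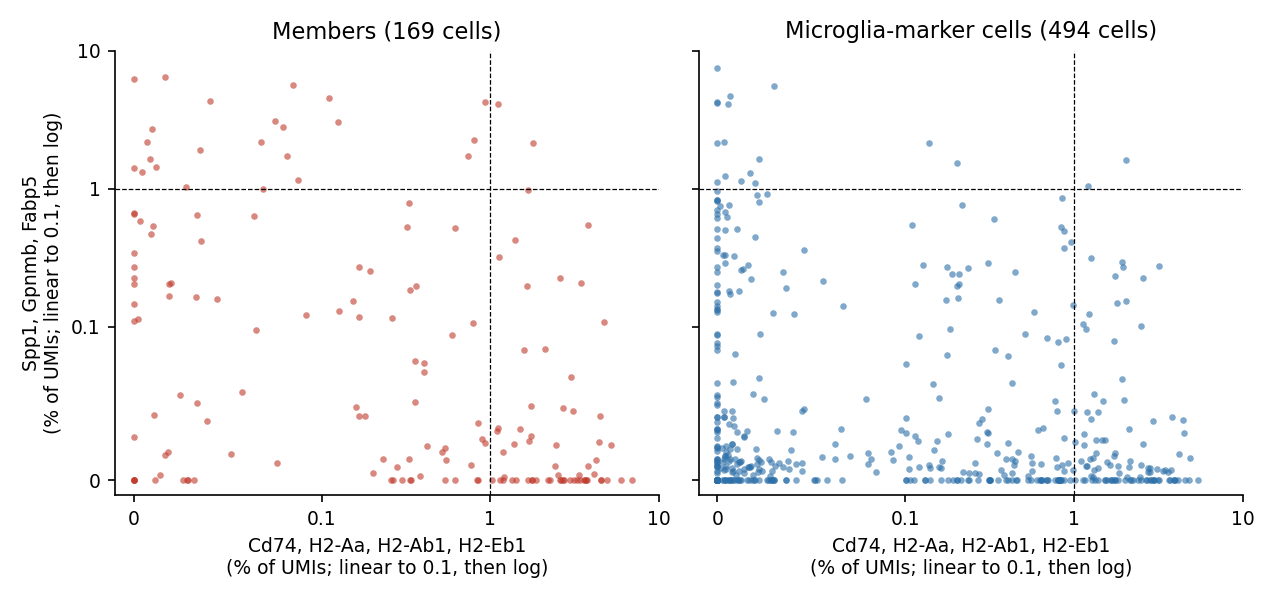
Each point is a cell, with the UMI share of 4 class II genes on the x axis and of Spp1, Gpnmb and Fabp5 on the y axis (% of UMIs, linear up to 0.1 and logarithmic above), for 169 members and 494 microglia-marker cells. Dashed lines mark 1%, and only 2 cells of each panel lie beyond both.

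A second division ran along the rule genes themselves. Of the members, 69 had Ccr2 and no Mrc1 UMI, 24 had Mrc1 and no Ccr2, 21 had both and 55 neither. Median depth was similar in the first and second groups, at 14070 and 14088.5 UMIs. Class II was high in 37 of the 69 Ccr2 cells (53.6%) and 3 of the 24 Mrc1 cells (12.5%). Members with both genes (8 of 21, 38.1%) and with neither (14 of 55, 25.5%) lay between these shares. H2-Aa stood at 3430 CPM in the Ccr2 cells and 738 CPM in the Mrc1 cells (ratio 4.65, 4.16 to 5.20), Ciita at 102 against 15.2 CPM and Plac8 at 232 against 58.8 CPM. The dendritic cell genes Itgae (99.8 against 32.7 CPM) and Napsa (110 against 37.0 CPM) also had higher summed levels in the Ccr2 cells. At equal depth, however, the Itgae shares were alike, with 3 of 69 Ccr2 cells (4.35%) and 1 of 24 Mrc1 cells (4.17%). Napsa was found in 23.2% and 8.33%. Flt3 and Zbtb46 did not differ beyond counting error. Several border macrophage genes had higher summed levels in the Mrc1 cells, from a minority of them. Folr2 stood at 144 CPM in them and 2.08 CPM in the Ccr2 cells, Ccl8 at 692 against 4.85 CPM, F13a1 at 98.0 against 7.62 CPM and the scavenger receptor Stab1 at 335 against 116 CPM. Cd163 stood at 80.5 CPM in the Mrc1 cells and had no UMI in the Ccr2 cells. At equal depth Folr2 was found in 6, Cd163 in 4 and F13a1 in 3 of the 24 Mrc1 cells. Lyve1, at 10.9 against 4.85 CPM, did not differ beyond counting error (Ccr2 over Mrc1 cells 0.446, 0.122 to 1.78).

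Ly6c2 did not follow this division beyond counting error (123 against 87.1 CPM, ratio 1.41, 0.995 to 2.04). The 47 members with a Ly6c2 UMI had 553 CPM of Ccl8 against 32.7 CPM in the other 122, and 101 against 38.9 CPM of Mrc1, while Ccr2 was at 165 against 153 CPM and Plac8 at 117 against 146 CPM. Cx3cr1 (713 against 623 CPM) and Csf1r (593 against 686 CPM) were close in the Ccr2 and Mrc1 cells. With 24 cells in the smaller group, single cells weigh heavily on these values.

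**Figure D5:**
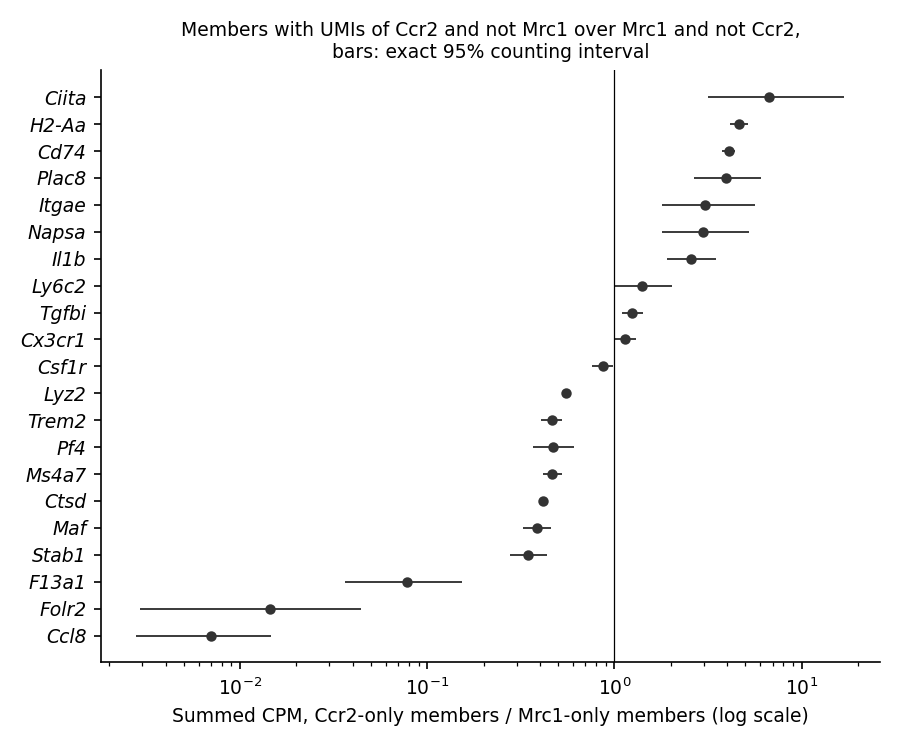
Ratio of CPM between the 69 members with Ccr2 and without Mrc1 UMIs and the 24 members with Mrc1 and without Ccr2 UMIs (x axis, log scale), with exact 95% counting intervals. Class II genes and Plac8 lie right of 1, Cx3cr1, Csf1r and Ly6c2 near 1, and Folr2, Ccl8 and F13a1 far to the left.

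In genes outside the rule, members lay among both kinds of cell. Among the 15 nearest neighbours of a member, 27.8% were members, beside 22.8% of the gate and 18.6% among the neighbours of microglia-marker cells. There were 22 members with a majority of members around them and 5 with none. The 59 members without any microglia UMI had 595 CPM of Cx3cr1 against 809 CPM in the other 110 and 632 against 633 CPM of Csf1r, and at equal depth 72.9% and 83.6% of them had a Csf1r UMI. H2-Aa was at 2695 and 2308 CPM and Ly6c2 at 157 and 109 CPM. The proliferation gene Mki67 stood at 74.2 against 316 CPM, between groups whose depth the rule sets apart. Cells with 3 or more UMIs of 5 cell cycle genes were 80 of 169 members (47.3%) and 273 of 494 microglia-marker cells (55.3%), a count that depends on depth. At equal depth Mki67 was found in 23.7% of members, 31.4% of microglia-marker cells and 0% of rods.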

How the data were processed

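The authors deposited raw UMI counts for 31053 genes, made with Cell Ranger 3.0.2 per the file headers. The submitters' processing notes name mm10, and an annotation version is not stated. GENCODE M21, used for positions, holds 31011 of these genes. Groups follow the treatment label.

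The rule was applied to the deposited counts (Python 3.11.15, scanpy 1.11.5, numpy 2.4.6, scipy 1.17.1, pandas 2.3.3, scikit-learn 1.9.0). Counts were summed per group and scaled to CPM, and 1 UMI is worth 0.308 CPM in members. Ratios have exact conditional binomial 95% intervals, and a count of 0 was set at 3. Shares use cells thinned once to 3000 UMIs (seed 1), which left out no cell of these groups. Rod cells had 5% or more of UMIs from 5 rod phototransduction genes and C1q under 0.3%. Doublets were called with scrublet at an expected rate of 6% (180 of 9441 cells, 1.91%). Neighbours used 1500 variable genes without rule, mitochondrial, ribosomal protein and sex-linked genes, 20 principal components and 15 neighbours. The ratio code was tested on simulated data.

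Named genes were the 12 highest and 12 lowest ratios with at least 100 CPM in the higher group, 50 UMIs, a UMI in at least 10% of its cells and at most 20% of UMIs in 1 cell, without rule, mitochondrial, ribosomal protein, sex-linked and unnamed genes, then Tgfbi, Cd36, Nlrp3, Il1b and genes of 32 lists (431 genes found); a few further list genes were named after their values were seen, and some that met the rule are not reported here. Members, lists and tests were chosen with earlier results of these data known. Alternatives included TMM scaling (edgeR 4.0.16, R 4.3.3).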

Additional observations from a re-analysis of the deposited data

How the results depend on the processing

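The share of the gate that are members was 15.2% when the rule was applied to thinned cells, where its limit of 3 UMIs exceeds 0.02%. It stayed within the counting interval of 22.8% in the other 6 alternatives. Genes higher, 336, were 677 without cycling cells, 658 against microglia-marker cells below the macrophage limit, 135 at 50 CPM or more and 1024 with no CPM minimum, and genes lower, 162, were 378, 530, 78 and 424 in the same order and 282 in thinned cells. With the 59 members without microglia UMIs alone, an alternative chosen after seeing the data like those on Spp1-rich members and Fn1, they were 854 and 752. Tgfbi was found in 92.9% of members without thinning. The classical monocyte ratio, 0.918, was 0.967 without cycling cells, 0.715 against cells below the macrophage limit, 0.877 without Spp1-rich members and 1.47, the other direction, without Fn1. The homeostatic ratio, 0.765, stayed below 1 in its 13 alternatives, at 0.735 with the macrophage limit at 0.04%, 0.784 without doublets, 0.807 with the rule on thinned cells, 0.655 without cycling cells, 0.752 as a mean over cells, 0.752 in thinned cells, 0.749 with TMM, 0.745 with median-of-ratios scaling and 0.797 without Spp1-rich members. The neighbour share was 19.3% with the rule on thinned cells, where members were 15.2% of the gate. Apart from settings that change the limits or test fewer or more genes or cells, the cause of these shifts was not tested. TMM and median-of-ratios scaling moved the median log2 ratio by 0.03 and 0.04. No paired analysis was possible because each treatment has 1 library.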

Other observations

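Several gene groups differed little between members and microglia-marker cells. Over all genes 5.12% were called higher and 2.47% lower, so 1 called gene of a short list is near those shares. None of 20 proliferation genes was called, with a summed ratio of 0.880 (0.863 to 0.897), and none of 15 immediate early and dissociation-linked genes (0.853, 0.841 to 0.865). Of 18 genes of phagocytosis and dying-cell receptors, Mfge8 was higher and Cd14 lower, and the summed ratio was 0.991 (0.976 to 1.01). Of 20 interferon response genes, Ifit1 and Rsad2 were lower and none higher (0.821, 0.807 to 0.835). Among 15 chemokine and growth factor receptor genes, Cxcr4, which binds Cxcl12, was higher at 70.2 against 35.5 CPM, and Cx3cr1 and Ccr1 were lower. Of 14 integrin and adhesion genes, Jaml was higher and Vcam1 lower. Arg1 was the single called gene among 6 of alternative activation.

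Iron and oxidative stress genes had 3 higher (Cp, Hmox1 and Sqstm1) and none lower of 15, beside 5.12% and 2.47% of all genes. Heme oxygenase (Hmox1) stood at 126 against 80.02 CPM, with 22.7% of UMIs in 1 member. Complement genes outside the rule had C3, C4b and Serping1 higher. C3 stood at 21.5 against 4.83 CPM in 25 members, and 3 of them held 50% or more of its UMIs. Both tested endothelial genes, Flt1 and Kdr, were higher, while the summed endothelial list had a ratio of 0.868 (0.758 to 0.991). NK and T cell genes, of which the gate removed cells with 3 or more UMIs of its 3 genes, stood at 110 against 169 CPM as a sum and had a ratio of 1.14 as a mean over cells. B cell genes stood at 146 against 184 CPM, with 1 gene tested and not called. Pigment epithelium and red blood cell genes stood at 4.62 and 21.2 CPM in members, and no gene of these lists could be tested.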
